A study of Mus musculus with 16 samples.

Results

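The genes of the enzymes and elongation factors that place and handle ubiquitin on histone H2B were examined in ChIP-seq peak lists of mouse cells with and without ATXN7L3. The 10 genes were chosen by name from the 21938 protein-coding genes of the GENCODE M21 annotation, by their roles and with earlier results of these data known. They comprise the ligase genes Rnf20 and Rnf40, the conjugating enzyme gene Ube2b, the adaptor gene Wac, the PAF complex genes Paf1, Ctr9, Cdc73 and Leo1, and the FACT genes Supt16 and Ssrp1. For each gene, the peaks of RNA polymerase II (Pol II) within 1000 bp of the transcription start site (TSS) and along the gene body were read from the lists, together with the share of the gene body inside peaks of monoubiquitylated histone H2B (H2Bub1).

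H2Bub1 is placed during transcription. The E3 ligase formed by RNF20 and RNF40 takes ubiquitin from the conjugating enzyme UBE2B or its close relative UBE2A, and WAC tethers the ligase to elongating Pol II. The PAF complex travels with Pol II and stimulates the ligase, and the histone chaperone FACT takes apart and rebuilds nucleosomes in the path of Pol II. ATXN7L3 is the adaptor that activates the ubiquitin proteases that take the mark off again.

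The lists came from mouse embryonic stem cells (mESCs), derived from blastocysts and kept off feeders with LIF and kinase inhibitors, and from fibroblast cultures of E10.5 embryos (MEFs), all on a DBA/2 x C57BL/6 background. In each cell type a wild-type (WT, Atxn7l3+/+) culture was compared with a knockout (KO, Atxn7l3-/-) culture that carries the null allele in every cell, and there was no further treatment. Each group was measured in 1 library with an antibody against H2Bub1 and 1 with an antibody against the Pol II subunit RPB1, which gave 8 lists. With n = 1 per group no difference has a replicate check, no test was possible, and the values below describe these libraries. In such bulk cultures a change in some cells and a change in every cell cannot be told apart.

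The read depth is unknown, and the lists differed in length. The H2Bub1 lists held 40979 (WT mESC), 48952 (KO mESC), 19723 (WT MEF) and 28856 (KO MEF) peaks, and the Pol II lists 17074, 11963, 45869 and 32232 in the same order, so that KO had more H2Bub1 peaks and fewer Pol II peaks than WT in both cell types. At the targeted gene Atxn7l3, H2Bub1 covered 100% (WT mESC), 62.5% (KO mESC), 22.0% (WT MEF) and 65.3% (KO MEF) of the gene body, and both KO lists left an uncovered stretch in its middle, of 2750 bp in mESCs and 2541 bp in MEFs, against none in WT mESCs and 5078 bp in WT MEFs. Its promoter, outside the exons that the study flanked for deletion, had a Pol II fold of 3.61, 3.71, 20.9 and 23.4 and checks nothing. Pol II peaks covered 50.1% (WT mESC), 30.4% (KO mESC), 60.8% (WT MEF) and 58.3% (KO MEF) of its body, which hardly differed between genotypes in MEFs. All 6 pluripotency markers examined had a Pol II promoter peak in both mESC lists, none in WT MEFs and 1, Tfcp2l1, in KO MEFs with a fold of 7.08. All 7 fibroblast markers had such a peak in WT MEFs, with a summed fold enrichment of 147, against 6 in KO MEFs with a sum of 75.3 and no peak at Fap, and none in mESCs. The mesothelial markers Wt1, Msln and Upk3b had none in WT MEFs and all had a peak in KO MEFs, with a sum of 39.8. Of 4 markers each, endothelium and blood had 1 with a peak in each MEF list, with folds of 2.61 to 4.31, and epithelium 2 in each mESC list. The KO and WT MEF lists therefore also differ in cell identity markers, and the part of this in the MEF results below was not tested.

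The sequences just upstream of the TSS are shown for 4 genes on which the comparisons turn: Rnf40, which had no Pol II peak at its start in mESCs, Paf1 and Cdc73, whose promoter values moved most in mESCs, and Leo1, whose promoter peak was called in KO mESCs and not in WT mESCs. They were read from GRCm38.p6, run 5′ to 3′ in the direction of the gene up to the base before the TSS, and were shortened where a neighbouring gene begins. Capitals mark GC boxes (GGGCGG) and CCAAT boxes (CCAAT) found on either strand, and the marked matches do not overlap.
Rnf40 (chr7:127588596-127588766, plus strand): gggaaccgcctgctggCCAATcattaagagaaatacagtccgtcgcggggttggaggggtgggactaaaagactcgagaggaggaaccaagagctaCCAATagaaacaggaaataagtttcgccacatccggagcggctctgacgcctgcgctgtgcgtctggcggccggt
Paf1 (chr7:28392709-28392950, plus strand): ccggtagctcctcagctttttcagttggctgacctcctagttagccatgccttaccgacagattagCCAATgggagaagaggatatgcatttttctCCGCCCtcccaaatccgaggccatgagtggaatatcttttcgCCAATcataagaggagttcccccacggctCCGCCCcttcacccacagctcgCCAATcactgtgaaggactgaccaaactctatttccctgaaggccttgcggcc
Leo1 (chr9:75441274-75441523, plus strand): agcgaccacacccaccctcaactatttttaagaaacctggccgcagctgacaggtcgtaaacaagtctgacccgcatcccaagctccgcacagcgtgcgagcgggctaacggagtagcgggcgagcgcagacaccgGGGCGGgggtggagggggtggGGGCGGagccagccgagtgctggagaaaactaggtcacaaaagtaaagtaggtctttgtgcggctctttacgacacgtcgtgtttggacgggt
Cdc73 (chr1:143702894-143703143, minus strand): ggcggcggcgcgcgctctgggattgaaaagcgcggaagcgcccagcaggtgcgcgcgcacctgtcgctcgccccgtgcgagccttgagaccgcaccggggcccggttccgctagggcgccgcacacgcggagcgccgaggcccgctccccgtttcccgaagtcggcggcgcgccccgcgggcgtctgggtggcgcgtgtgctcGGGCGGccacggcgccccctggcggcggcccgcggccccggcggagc

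In the 250 bp upstream of the TSS, a GC box was present in 7 of the 10 genes and in 39.0% of all protein-coding genes, and a CCAAT box in 3 genes (Rnf40, Wac and Paf1) and in 36.0% of all. None of the 10 windows held the TATA box letters TATAAA, which 11.5% of all windows hold. An ETS motif (CCGGAAG) occurred upstream of Ctr9 and Ssrp1 and in 8.03% of all windows. The median GC content was 58.6% over the 10 genes and 54.0% over all, and the median ratio of observed to expected CpG was 0.907 and 0.486. The window of Cdc73 was the richest in GC at 80.4%. The sequences printed for Rnf40 and Paf1 are the whole gap to a gene on the other strand, of 171 bases to Ccdc189 and of 242 bases to Med29, where the window of 250 bp reaches into that gene, and a Pol II peak there cannot be assigned to either gene of the pair.

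Rnf20 (ENSMUSG00000028309, chr4:49632006-49656887, plus strand) encodes the RING finger subunit that contacts the conjugating enzyme. H2Bub1 peaks covered 2.42% (WT mESC), 8.25% (KO mESC), 11.4% (WT MEF) and 26.9% (KO MEF) of its body. All of this lay in the 5′ part of the gene, where the domain next to the TSS ended 0.688 kb (WT mESC), 0.720 kb (KO mESC), 3.18 kb (WT MEF) and 6.74 kb (KO MEF) downstream. The mark was thus wider in KO than in WT in both cell types and never reached the middle of the gene, and the −log10 q of that domain was 2.05 in WT and 9.60 in KO mESCs. Pol II was called at its promoter in all 4 lists, with a fold enrichment of 4.73 (WT mESC), 3.91 (KO mESC), 17.2 (WT MEF) and 15.2 (KO MEF). Fold enrichment is the pileup at the summit over the local background used in the call. Whether that background came from an input library is not known here. The summits lay 96 to 179 bp downstream of the TSS, in the 5′ UTR, and no Pol II peak was called elsewhere in the gene.

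Rnf40 (ENSMUSG00000030816, chr7:127588767-127604799, plus strand) encodes the partner subunit of the ligase. In mESCs H2Bub1 covered 78.9% of its body in WT and 79.4% in KO. In MEFs it covered 33.6% in WT and 45.7% in KO. These shares rested on weak peaks, since at a −log10 q of at least 3 none of the body was covered in WT of either cell type, against 38.2% (KO mESC) and 34.1% (KO MEF). The higher level in mESCs was not found with equal numbers of peaks in all 4 lists, where the shares were 27.2% (WT mESC), 38.2% (KO mESC), 33.6% (WT MEF) and 45.7% (KO MEF). No Pol II promoter peak was called in either mESC list, where the nearest Pol II peak lay 3355 bp (WT) and 3775 bp (KO) from the TSS. In WT mESCs the Pol II peaks of this gene were instead in coding exon 14, with a fold of 2.88, and in the 3′ UTR in exon 20, with a fold of 4.28. In MEFs the promoter fold was 6.22 in WT and 9.31 in KO, the lowest of the 10 genes in both lists, with summits 27 and 56 bp from the TSS. The shared promoter with Ccdc189 holds for these values.

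Ube2b (ENSMUSG00000020390, chr11:51985497-52000762, minus strand) encodes the conjugating enzyme that hands ubiquitin to the ligase. H2Bub1 covered 39.5% (WT mESC), 77.5% (KO mESC), 18.7% (WT MEF) and 100% (KO MEF) of its body. In WT mESCs this was made of 5 separate peaks, and in KO mESCs of 2, the longer of them 10.0 kb wide. In KO MEFs a single peak of 22.9 kb ran from 6602 bp upstream of the TSS to 16.3 kb downstream, past the end of the gene. Pol II fold at the promoter was 4.73, 4.04, 14.3 and 15.3 in the same order. The promoter fold therefore stayed within 1.5-fold between genotypes where the H2Bub1 share moved by 38.0 points in mESCs and 81.3 points in MEFs. A Pol II peak with its summit in the body beyond the first 1000 bp was called in WT MEFs, with a fold of 3.04, and none in KO MEFs.

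Wac (ENSMUSG00000024283, chr18:7868832-7929028, plus strand) encodes the adaptor between the ligase and Pol II. Its H2Bub1 share was 3.22% (WT mESC), 9.03% (KO mESC), 21.1% (WT MEF) and 83.1% (KO MEF), and the covered length was 1.94, 5.44, 12.7 and 50.04 kb. The KO MEF value came mainly from a peak of 50.4 kb that began 3872 bp upstream of the TSS, where WT MEFs had 7 peaks, the longest of 6.19 kb. The Pol II promoter fold was 5.01 (WT mESC), 7.10 (KO mESC), 19.4 (WT MEF) and 22.5 (KO MEF), higher in KO in both cell types and by less than 1.5-fold.

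**Figure D1:**
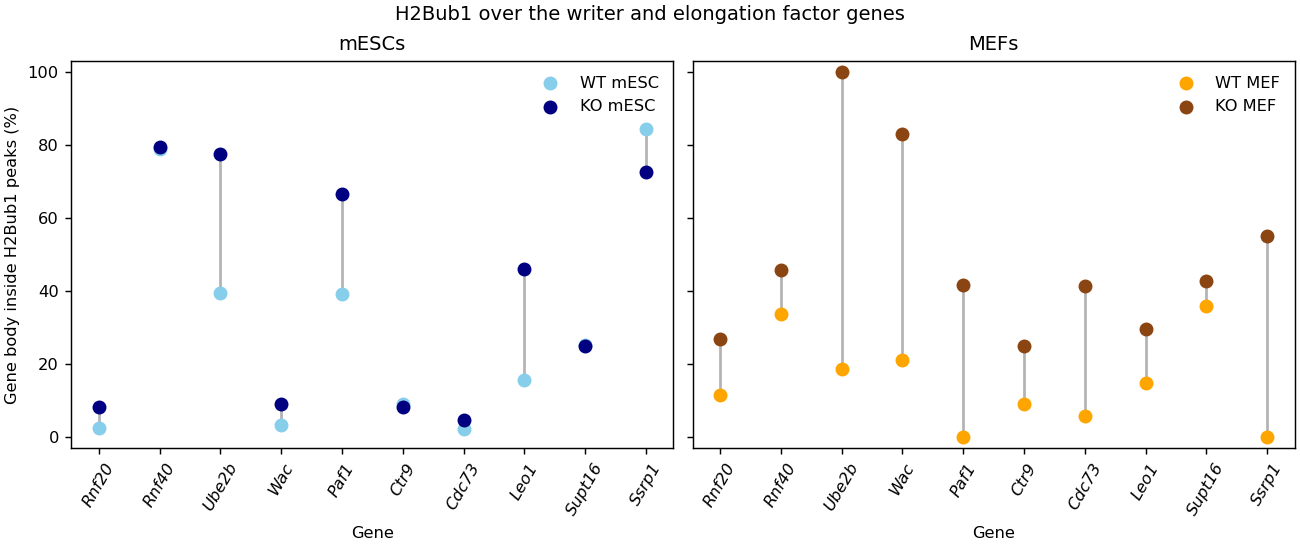
Share of the gene body inside H2Bub1 peaks in percent (vertical axis) for the 10 genes (horizontal axis), in mESCs on the left and MEFs on the right; each point is 1 library and grey lines join WT and KO. In MEFs every KO point lies above its WT point, from 6.99 points higher at Supt16 to 81.3 points at Ube2b, whereas in mESCs Ube2b, Leo1 and Paf1 are set apart by 27.6 points or more and Ssrp1 is lower in KO.

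Among the PAF complex genes, Paf1 (ENSMUSG00000003437, chr7:28392951-28399388, plus strand), which encodes the subunit that names the complex, is the shortest of the 10 genes at 6.44 kb. H2Bub1 covered 39.0% (WT mESC) and 66.6% (KO mESC) of its body, and in MEFs none of it in WT and 41.7% in KO. The KO peaks over its TSS extended far upstream, by 7073 bp in mESCs and 18111 bp in MEFs, across Med29. The promoter fold of Pol II was 5.12 (WT mESC), 8.28 (KO mESC), 18.6 (WT MEF) and 16.9 (KO MEF). Pol II peaks also covered 87.7% (WT MEF) and 78.5% (KO MEF) of the gene body, against 11.1% and 9.63% in WT and KO mESCs. The median over the 12639 genes whose promoter carried a Pol II peak in at least 1 list, called active genes below, was 5.34% (WT MEF) and 3.60% (KO MEF), and Paf1 stood at percentiles 95.2 and 96.4. In mESCs the median was 0.861% (WT) and 0.419% (KO), and Paf1 stood at percentiles 87.5 and 90.9, so it ranked high in all 4 lists.

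Ctr9 (ENSMUSG00000005609, chr7:111028951-111056377, plus strand), the scaffold gene of the complex, had an H2Bub1 share of 9.04% (WT mESC), 8.13% (KO mESC), 9.04% (WT MEF) and 24.9% (KO MEF). In mESCs the share was nearly equal between genotypes and the position differed, since the domain at the TSS ended at 0.610 kb in WT and 1.45 kb in KO while the 3′ section held a peak of 2.08 kb in WT and another of 0.783 kb, at a different place, in KO. Both of these peaks were weak, with a −log10 q of 1.27 and 1.16, and with a −log10 q of at least 3 nothing was covered in WT against 5.27% in KO. Pol II fold at the promoter was 3.73, 3.32, 15.8 and 13.8 in the order WT mESC, KO mESC, WT MEF, KO MEF.

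Cdc73 (ENSMUSG00000026361, chr1:143598800-143702893, minus strand), which encodes parafibromin, is the longest of the 10 genes at 104 kb and contains B3galt2 within its span. Its H2Bub1 share was 2.05% (WT mESC), 4.58% (KO mESC), 5.82% (WT MEF) and 41.5% (KO MEF). In KO MEFs 15 peaks reached from the TSS to 92.8 kb, where WT MEFs had 5 peaks that ended at 38.1 kb. The last of the KO MEF peaks was weak, with a −log10 q of 1.67. With a −log10 q of at least 3 the shares were 1.52% (WT mESC), 3.65% (KO mESC), 0.378% (WT MEF) and 20.4% (KO MEF). The domain at the TSS measured 11.1 kb in KO MEFs and 0.393 kb in WT MEFs. Promoter Pol II had a fold of 7.29 (WT mESC), 4.27 (KO mESC), 22.8 (WT MEF) and 17.5 (KO MEF), lower in KO in both cell types.

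Leo1 (ENSMUSG00000042487, chr9:75441524-75466432, plus strand), the gene of a further PAF subunit, had an H2Bub1 share of 15.6% (WT mESC), 46.1% (KO mESC), 14.7% (WT MEF) and 29.6% (KO MEF). The domain at the TSS ended at 0.586 kb in WT mESCs and 6.47 kb in KO mESCs. No Pol II promoter peak was called in WT mESCs, where the nearest peak was 31007 bp away. In KO mESCs a peak with a fold of 4.93 and a −log10 q of 8.41 had its summit 143 bp upstream of the TSS, inside the sequence printed above. In MEFs the promoter fold was 22.2 in WT and 15.5 in KO, with summits 46 and 61 bp downstream of the TSS.

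Of the FACT genes, Supt16 (ENSMUSG00000035726, chr14:52160414-52197416, minus strand) encodes the large subunit. Its H2Bub1 share was 25.1% (WT mESC), 24.96% (KO mESC), 35.8% (WT MEF) and 42.8% (KO MEF), the smallest difference between genotypes of the 10 genes in either cell type when all peaks were used. With a −log10 q of at least 3 the values were 9.88% (WT mESC), 24.96% (KO mESC), 0% (WT MEF) and 41.1% (KO MEF). The Pol II promoter fold was 7.23 (WT mESC), 4.97 (KO mESC), 22.8 (WT MEF) and 15.4 (KO MEF), a ratio of WT to KO of 1.45 in mESCs and 1.48 in MEFs. The 3′ end of Chd8 lies 734 bases upstream, inside the promoter window.

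Ssrp1 (ENSMUSG00000027067, chr2:85037234-85047109, plus strand) encodes the HMG box subunit of FACT and overlaps the start of P2rx3 on the other strand by 229 bp, so that its promoter values belong to both genes. Its H2Bub1 share was 84.3% (WT mESC) and 72.5% (KO mESC), and in MEFs 0% in WT and 55.1% in KO. In WT mESCs the share came from a single peak of 8.33 kb with a −log10 q of 2.66, whereas the KO mESC peak over the TSS had a −log10 q of 8.33. With peaks restricted to a −log10 q of at least 3 the difference between KO and WT turned from -11.8 points to 55.8 points. Pol II fold at the promoter was 4.44 (WT mESC), 4.53 (KO mESC), 13.5 (WT MEF) and 10.9 (KO MEF).

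**Figure D2:**
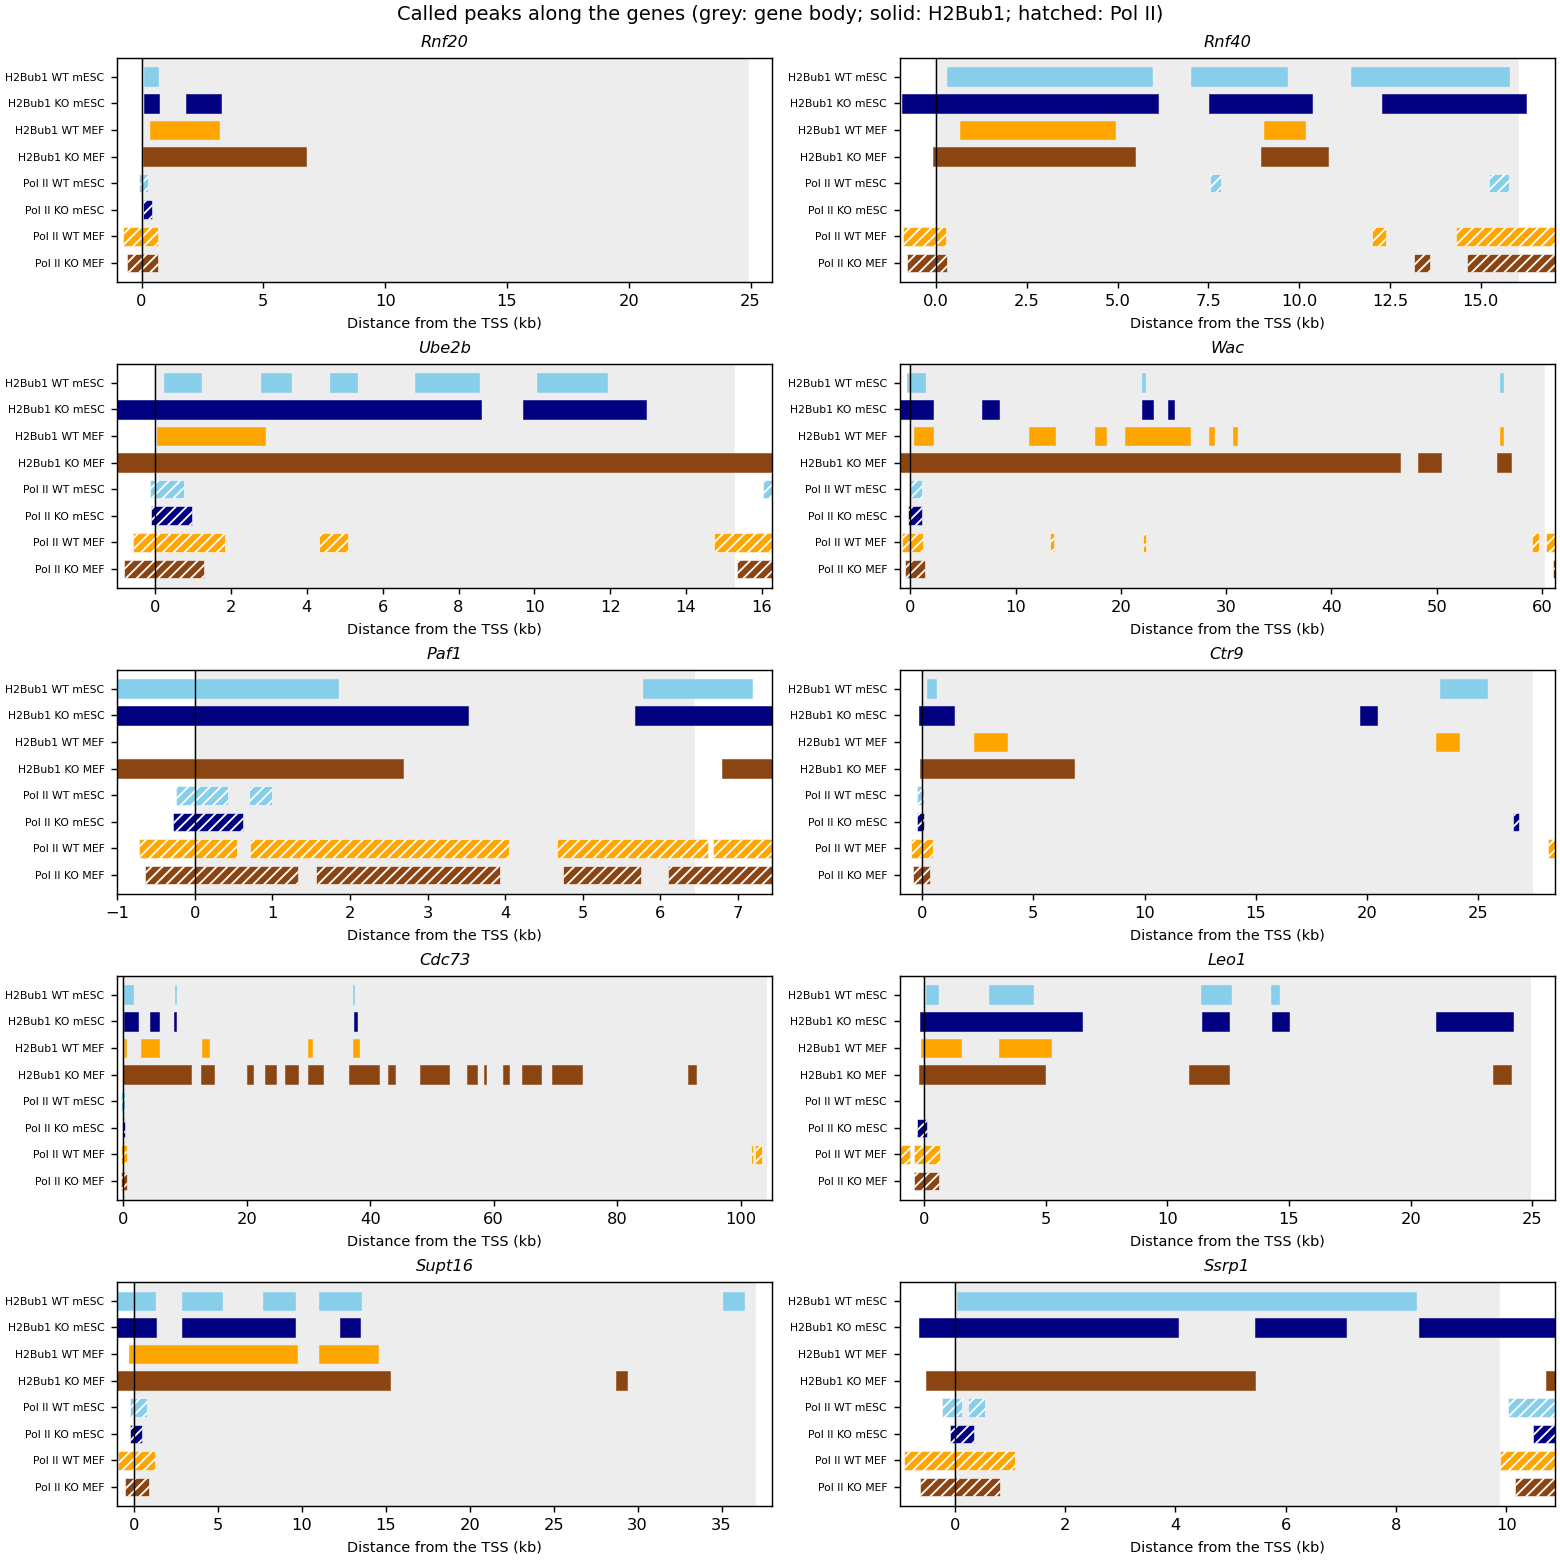
Called peaks along each of the 10 genes, by distance from the TSS in kb (horizontal axis, own scale for each gene, 1 kb shown beyond either end and peaks cropped there), with solid bars for H2Bub1 and hatched bars for Pol II in each of the 4 libraries and the gene body in grey. The H2Bub1 bars of KO MEFs begin at or upstream of the TSS in all genes but Rnf20, and fill Ube2b, while Pol II bars are found mainly at the start and past the end of the genes, except at Paf1.

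An H2Bub1 peak was present in the body of all 10 genes in both mESC lists, against 53.6% (WT) and 60.8% (KO) of all protein-coding genes. In MEFs it was present in 8 genes in WT, all but Paf1 and Ssrp1, and in all 10 in KO, against 30.4% and 53.0%. To compare genotypes, the share of the body inside H2Bub1 peaks was called higher in KO when the difference was at least 10 points. In mESCs this held for 3 of the 10 genes, Ube2b, Paf1 and Leo1, against 49.6% of active genes. A share higher in KO by any amount was found at 7 genes, against 78.1% of active genes, and a lower share at Ctr9, Supt16 and Ssrp1, against 10.7%. At Ssrp1 it was at least 10 points lower, which held for 3.40% of active genes. The median difference was 4.17 points over the 10 genes, from -11.8 to 38.0, and 9.77 points over the active genes. These mESC counts rested on the peak threshold. A peak of −log10 q 3 or more lay in the body of 5 of the 10 genes in the WT list and all 10 in the KO list, against 34.7% and 70.5% of active genes. With a −log10 q of at least 3 all 10 genes had a higher share in KO, Ctr9, Supt16 and Ssrp1 included, against 65.9% of active genes, and 6 genes (Rnf40, Ube2b, Paf1, Leo1, Supt16 and Ssrp1) passed 10 points, against 40.2%. The median difference was then 19.5 points over the 10 genes and 4.63 points over the active genes.

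In MEFs 9 of the 10 genes, all but Supt16, had a share at least 10 points higher in KO, against 73.6% of active genes. The median difference was 25.8 points over the 10 genes, from 6.99 to 81.3, and 29.6 points over the active genes, so the MEF values of the 10 genes lay close to the background. All 10 shares were higher in KO by some amount, against 84.5% of active genes. No gene was lower, against 0.673% of active genes, or lower by at least 10 points, against 0.111%. With a limit of 25 points the count was 5 genes, Ube2b, Wac, Paf1, Cdc73 and Ssrp1, against 55.9%. The WT MEF shares came mostly from weak peaks, and with a −log10 q of at least 3 only Wac (2.98%) and Cdc73 (0.378%) had any in WT MEFs, against 9.07% of active genes, while all 10 did in KO MEFs, against 78.4%. All 10 genes then had a share at least 10 points higher in KO, against 69.3%, and the median difference was 37.6 points against 31.2 points. Shares were higher in KO in both cell types at 7 genes, against 70.9% of active genes, and by at least 10 points in both at 3, Ube2b, Paf1 and Leo1, against 43.3%.

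**Figure D3:**
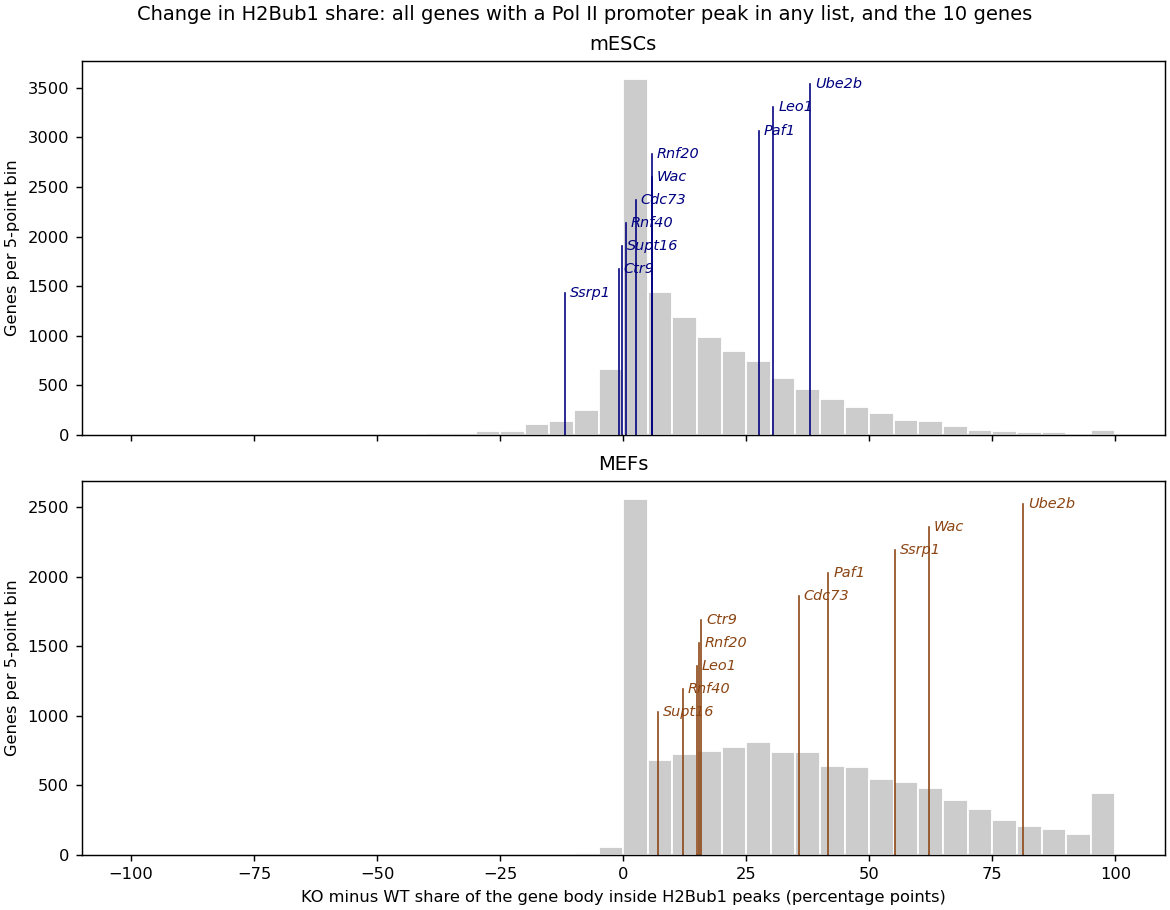
Difference in H2Bub1 share between KO and WT in percentage points (horizontal axis) against the number of genes per 5-point bin (vertical axis), for the 12639 active genes; lines mark the 10 genes, in mESCs above and MEFs below, and genes with no difference fall in the bin from 0. The medians of all genes are 9.77 points in mESCs and 29.6 in MEFs, and 6 of the 10 genes in mESCs lie between 0 and 10 points or just under 0.

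The position of the mark at the start of the genes differed as well. An H2Bub1 peak lay over the TSS base itself in 3 of the 10 genes in WT mESCs (Wac, Paf1 and Supt16) and in 8 in KO mESCs, against 29.2% and 63.5% of active genes. In MEFs this held for 2 genes in WT (Leo1 and Supt16) and 9 in KO, against 5.88% and 59.7%. Rnf20 was the gene whose domain began downstream of the TSS in every list, by 59 to 346 bp. When each gene body was cut into 3 equal sections, the median coverage of the 5′ section over the 10 genes was 35.8% (WT mESC), 72.0% (KO mESC), 30.2% (WT MEF) and 100% (KO MEF). In the middle section it was 5.44%, 15.6%, 0% and 30.0%, and in the 3′ section 16.6%, 22.1%, 0% and 3.46%. The difference between the KO and WT medians was thus largest in the 5′ section in both cell types, and Ube2b and Wac were the genes with full coverage of the middle section in KO MEFs. Values of the sections over all active genes are not given here, so this is not shown to be particular to the 10 genes.

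Pol II promoter peaks were present at 8 of the 10 genes in WT mESCs and 9 in KO mESCs, against 33.9% and 31.3% of all 21938 protein-coding genes, and at all 10 genes in both MEF lists, against 54.1% and 51.1%. No gene lost its promoter peak in KO, where 22.6% of all promoters with a WT peak had none in KO mESCs and 8.16% in KO MEFs. All 4 lists had a promoter peak at 8 genes, against 25.2% of all. Leo1 had a peak in KO mESCs only, and of all genes with no WT mESC peak 7.75% had one in KO. Of the 8 genes with a peak in both mESC lists, Paf1 had a fold at least 1.5 times higher in KO (1.62-fold) and Cdc73 at least 1.5 times lower (1.71-fold), against 11.0% and 10.8% of 5751 promoters. In MEFs no gene passed that limit in either direction, against 5.72% higher and 24.3% lower of 10892 promoters, though Rnf40 and Supt16 stood just inside it.

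The median log2 KO/WT ratio of promoter fold was -0.20 over the 8 genes in mESCs, from -0.77 at Cdc73 to 0.69 at Paf1, and 0.025 over all promoters. In MEFs it was -0.18 over the 10 genes, from -0.57 at Supt16 to 0.58 at Rnf40, and -0.23 over all promoters. Since fold is relative to the background used in each call, these are differences between lists and no absolute change. The fold was higher in KO at 3 of the 8 genes in mESCs and 3 of the 10 in MEFs, against 52.5% and 32.3% of all promoters. Rnf20, Ctr9, Cdc73 and Supt16 were lower in KO in both cell types, Wac was higher in both, and Ube2b, Paf1 and Ssrp1 differed in direction between cell types.

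**Figure D4:**
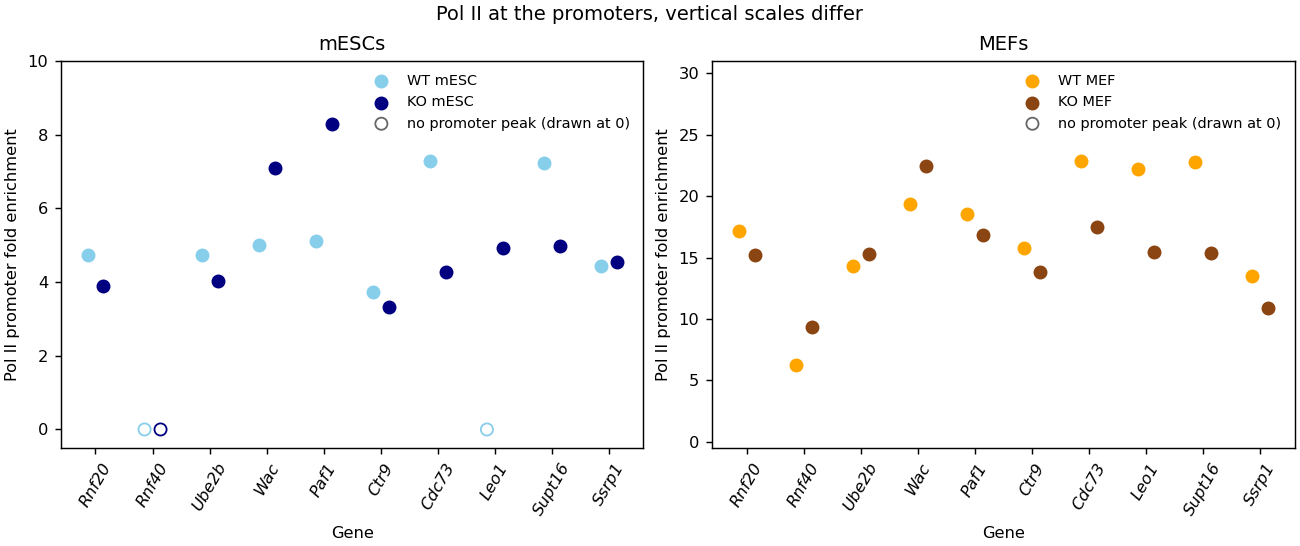
Fold enrichment of the highest Pol II peak within 1000 bp of the TSS (vertical axis, different scales) for the 10 genes, in mESCs on the left and MEFs on the right, with 1 point per library and open circles at 0 where no peak was called. Rnf40 has no peak in either mESC list and the lowest fold in both MEF lists, and Leo1 has a peak of 4.93 in KO mESCs and none in WT mESCs.

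Beyond the first 1000 bp, Pol II peaks touched the gene body of 2 genes in WT mESCs (Rnf40 and Wac) and of 2 in KO mESCs (Wac and Ctr9), against 20.0% and 13.3% of all protein-coding genes. In MEFs they touched 7 genes in WT and 4 in KO (Rnf40, Ube2b, Wac and Paf1), against 41.0% and 32.9%. Of the 7 genes with a body peak in WT MEFs, 5 had fewer in KO, against 58.2% of all genes with a WT body peak. By overlap Wac had 4 such peaks in WT and 1 in KO, Ube2b 3 and 1, Cdc73 2 and none, Supt16 and Ssrp1 1 and none, Rnf40 2 and 2, and Paf1 2 and 4. The KO Pol II list was the shorter of the pair. With lists of equal length Wac had 3 in WT and 1 in KO, Ube2b 2 and 1, Cdc73 1 and none, and Rnf40 1 and 2, and 5 of the 7 genes still had fewer in KO, against 44.6% of all such genes. With the summit required to lie in the body, 5 genes had a peak in WT MEFs (Rnf40, Ube2b, Wac, Paf1 and Cdc73) and 2 in KO MEFs (Rnf40 and Paf1), against 31.8% and 25.1% of all genes, and 1 in each mESC list (Rnf40 in WT and Ctr9 in KO), against 17.1% and 11.2%. Paf1 then had 2 peaks in WT and 2 in KO MEFs. The peaks counted by overlap at Supt16 and Ssrp1 in WT MEFs were promoter peaks that ended 1228 and 1087 bp downstream of the TSS. In mESCs 1 of the 2 genes with a WT body peak, Rnf40, had fewer in KO, against 65.4% of all such genes.

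Within 5000 bp past the end of the gene, a Pol II summit was called for 8 of the 10 genes in WT MEFs and 5 in KO MEFs, against 36.3% and 26.3% of all genes. At Wac the fold there was 14.4 in WT MEFs, 1574 bp past the end, and 4.12 in KO MEFs, 3531 bp past the end. At Rnf40 the WT fold was 8.63, 18 bp past the end, while in KO the peak over the gene end had its summit inside the gene, in the 3′ UTR, with a fold of 3.73, and the one past the end, 2471 bp on, a fold of 3.08. At Ube2b the folds were 8.62 and 5.40. Ctr9, Cdc73 and Supt16 had a peak there in WT MEFs, with folds of 4.96, 3.35 and 6.16, and none in KO MEFs. At Paf1 the fold was 4.83 in WT and 5.11 in KO, and at Ssrp1 17.4 and 20.1. Some of these summits lay inside a neighbouring gene and cannot be assigned to the gene before it: those of Ssrp1 in Tnks1bp1, those of Paf1 in Samd4b, that of Supt16 in Rpgrip1 and that of Rnf40 in KO MEFs in Zfp629. Of all genes with a WT MEF peak past their end, 83.5% had a lower fold or no peak in KO. In mESCs 3 of the 10 genes had such a peak in WT (Ube2b, Wac and Ssrp1) and only Ssrp1 in KO, against 19.7% and 12.6% of all genes. At all 3 the KO value was lower or no peak was called, against 79.5% of all genes with a WT mESC peak past their end.

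Between cell types, the WT share was at least 10 points higher in MEFs than in mESCs at 2 of the 10 genes (Wac and Supt16) and at least 10 points lower at 4 (Rnf40, Ube2b, Paf1 and Ssrp1), against 10.4% and 35.2% of active genes. Ssrp1 differed most, with 84.3% in WT mESCs and no peak in WT MEFs. In KO the share was at least 10 points higher in MEFs at 6 genes (Rnf20, Ube2b, Wac, Ctr9, Cdc73 and Supt16) and lower at 4 (Rnf40, Paf1, Leo1 and Ssrp1), against 40.1% and 21.8%. Several of these calls rested on the length of the lists or on weak peaks. With equal numbers of peaks in all 4 lists, WT shares were lower in MEFs at Paf1 and Ssrp1 alone (2 genes, against 24.4%) and higher at Wac and Supt16 (13.4%), and KO shares lower at Paf1 alone (1 gene, against 14.7%) and higher at the same 6 genes (44.6%). With a −log10 q of at least 3 no WT share differed by 10 points in either direction, against 2.36% higher and 15.0% lower, whereas in KO the same 6 genes were higher (44.2%) and Paf1 lower (12.1%). Under all 3 settings the share of Ube2b was lower in MEFs than in mESCs in WT and higher in KO. In WT this difference passed 10 points only with all peaks. The WT shares in mESCs and MEFs were 27.4% and 18.7% with equal lists, and 6.39% and 0% with a −log10 q of at least 3. Longer genes had a smaller share in mESCs, with a Spearman correlation between gene length and share of -0.76 in WT and -0.75 in KO over the 10 genes, which share the same library, against -0.37 and -0.43 over the active genes. In MEFs it was 0.36 in WT and -0.24 in KO, against 0.055 and -0.26.

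Around these genes, 22 further genes of H2B ubiquitylation and Pol II elongation were taken as a list, among them Ube2a, the PAF genes Rtf1 and Wdr61, the subunits of the elongation factors DSIF, NELF and P-TEFb, and Polr2a. A Pol II promoter peak was called at 20 of them in WT mESCs, 18 in KO mESCs and all 22 in both MEF lists, against 33.9%, 31.3%, 54.1% and 51.1% of all genes. The H2Bub1 share was at least 10 points higher in KO at 15 in mESCs and 20 in MEFs, against the same 49.6% and 73.6%. At Ube2a, the X-linked relative of Ube2b, the share was 12.2%, 33.1%, 7.43% and 22.9% in the order WT mESC, KO mESC, WT MEF, KO MEF, so both conjugating enzyme genes were higher in KO in both cell types. Peaks on the X chromosome made up 0.569% of the WT and 2.20% of the KO mESC H2Bub1 list, and 0.735% and 2.63% in MEFs. In the Pol II lists they made up 0.855% and 2.76% in mESCs, and 2.12% in WT MEFs with a nearly equal share in KO MEFs. The part of this at Ube2a was not tested. At Rtf1 the share was 5.51%, 30.7%, 24.7% and 56.9%, and at Wdr61 14.3%, 25.4%, 18.9% and 30.9%. The median log2 ratio of Pol II promoter fold in mESCs was 0.37 over the 16 genes of this list with a peak in both, where it was -0.20 over the 8 genes above. In MEFs it was -0.15 over the 22 genes of this list and -0.18 over the 10 genes above. Supt6, Ccnt1, Nelfcd and Nelfe had a promoter peak in WT mESCs only (4 of 20, against 22.6% of all WT promoters), and Wdr61 and Ccnk in KO mESCs only.

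The genes whose H2Bub1 shares were most like those of the ligase genes were found by the mean absolute difference over the 4 H2Bub1 lists, among genes with Pol II promoter peaks in the same lists. For Rnf20 these were Ankhd1, Exoc2 and Pcm1 among 5519 genes, at a mean difference of 0.892, 0.954 and 1.21 points. For Rnf40 they were Xab2, Zfp217 and Naa40 among 3088 genes, at 5.43, 5.80 and 6.29 points. The distances found for Rnf20 and Rnf40 cannot be compared, because the shares of Rnf20 were lower and its pool of genes was larger.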

How the data were processed

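ChIP-seq peak lists of 8 libraries (H2Bub1 and Pol II, WT and KO, mESC and MEF, 1 library per group) were analysed. The other 8 samples in the labels, inputs and immunoprecipitations of Ser2-phosphorylated Pol II, were not analysed here. According to the submitters' processing notes and the study's methods, the authors aligned single-end reads to mm10 with Bowtie 1.0.0 and called peaks per library with MACS2 2.1.1.20160309, broad for H2Bub1 and narrow for Pol II. The control and the thresholds of the calls are not given in the sources used here. H2Bub1 was scaled by DESeq2 size factors over intergenic regions and Pol II by mapped reads, both by the authors, and how this entered the calls is unknown. Each deposited line gives a fold (a linear ratio of pileup over local background, averaged over broad peaks and at the summit of narrow ones), a −log10 p and a −log10 q. The deposited score column and the −log10 p served no reported value except to shorten lists. Values are relative to the background used in each call, and a deeper library gives more and wider peaks.

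Peaks on the 21 assembled chromosomes were set against GENCODE M21 (GRCm38) in 1-based coordinates. The promoter reached 1000 bp to each side of the start of the gene record, and the highest fold of an overlapping Pol II peak was its value. The body ran from the TSS to the end of the gene record, an overlap of 1 bp counted, and shares are bases inside merged H2Bub1 peaks. Part of the upstream sequences is not reported here. Exons are those of a single coding transcript per gene. Intervals at 95% cover counting error only. The named genes were the 10 genes, the targeted gene, the 22 pathway genes, neighbours that overlap a gene or share its promoter window, cell type markers and the 3 most similar genes of Rnf20 and Rnf40. The search past the gene ends and the neighbours found there were added after the values had been seen. The 10 genes, the lists and the comparisons were chosen with earlier results of these data known. The functions were tested on simulated peaks over 7969 genes: of 200 changed genes 100% were recovered and 0% of the unchanged ones were called, for H2Bub1 shares and for Pol II promoter peaks in both cell types. Alternatives were lists of equal length (in WT and KO, or in all 4), peaks with a −log10 q of 3 or more, peaks less than 1000 bp apart joined, bodies without their first 1000 bp or without bases of other genes, a narrow promoter (100 bp before to 300 bp after the TSS), every transcript start, 50% of the peak inside the promoter, the summit inside the body, and a limit of 25 points. Computing used Python 3.11.15, numpy 2.4.6, pandas 2.3.3, scipy 1.17.1 and matplotlib 3.10.9.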

Additional observations from a re-analysis of the deposited data

Results flagged for a closer look

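Differences between KO and WT had opposite signs in mESCs and MEFs at 3 of the 10 genes for the H2Bub1 share, against 8.01% of active genes, and at 3 of the 8 genes with a promoter peak in all 4 lists for the Pol II promoter fold, against 2759 of all 5520 such genes. With 1 library per group this was not tested. The H2Bub1 share at Ssrp1 was -11.8 points in mESCs against 55.1 points in MEFs. At Ctr9 it was -0.92 points against 15.9 points, and at Supt16 -0.14 points against 6.99 points. With a −log10 q of at least 3 the mESC values were 55.8 points at Ssrp1, 5.27 at Ctr9 and 15.1 at Supt16, of the same sign as in MEFs. The log2 ratio of KO to WT Pol II promoter fold was 0.69 in mESCs and -0.14 in MEFs at Paf1, -0.23 and 0.10 at Ube2b, and 0.030 and -0.30 at Ssrp1.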

How the results depend on the processing

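No paired analysis was possible because each group has 1 library. A value was taken as moved when a count changed by over 1.5 times, a share or its difference by 10 points or a promoter fold ratio by 1.5 times. Of the values that answer a comparison, 85 stayed within these limits under the alternatives and 9 moved. Of those at single genes, 212 stayed and 16 moved. The sign of the KO minus WT share changed in 6 cases, all in mESCs and 5 of them at differences of less than 1 point with all peaks: at Ctr9, Supt16 and Ssrp1 with a −log10 q of at least 3 (from -0.92 to 5.27, -0.14 to 15.1 and -11.8 to 55.8 points), at Ctr9 with equal numbers of peaks in all 4 lists (3.82), at Supt16 without bases of other genes (3.61) and at Rnf40 without the first 1000 bp (from 0.54 to -1.37). With a −log10 q of at least 3 the median share over the 10 genes was 0.760% in WT mESCs (20.3% with all peaks), 25.5% in KO mESCs (35.5%) and, for WT MEFs, 0% (13.0%), while 6 genes were at least 10 points higher in KO mESCs (3). With a limit of 25 points 5 genes were higher in KO MEFs (9 with 10 points). With the summit required inside the body, a Pol II body peak was called at 1 gene in WT mESCs (2 by overlap), 1 in KO mESCs (2) and 2 in KO MEFs (4). With equal numbers of peaks in WT and KO no count over the 10 genes, share difference or promoter fold ratio passed these limits, though the Pol II body peaks of single genes went from 2 to 1 at Rnf40 (WT mESC and WT MEF) and Cdc73 (WT MEF), and the mESC difference at Ctr9 was -3.77 points and the MEF difference 5.36 at Supt16 and 32.9 at Cdc73. With equal numbers in all 4 lists the median share in KO mESCs was 25.5%, and the mESC difference was 11.0 points at Rnf40, 16.7 at Leo1 and -28.6 at Ssrp1. The read depth is unknown, so a missing peak means that none was called, not that the signal is absent.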
